A study of Bubalus bubalis with 6 samples.

Results

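HSPA2, a gene of the HSP70 chaperone family, was measured in sperm DNA of the water buffalo, Bubalus bubalis. It was covered by 16 of the 177440 non-control probes of an array used for methylated DNA immunoprecipitation (meDIP). The probes are those with the gene name HSPA2 in the scanner tables, spelled exactly so. They were 60 bases long and lay on chromosome 10 between 78873841 and 78880065, a stretch of 6225 bp. These coordinates are as the files hold them (genome build: not given in the sources used here). Probes elsewhere on the array have chromosome numbers that reach at least 29, as for the gene STIP1. Whether the probe sequences and their CpGs match the buffalo genome was not checked. The files state no exon, intron, UTR or promoter for a probe. Of the 16 probes, 13 had an input signal well above background on all 6 arrays and are called kept probes below. The kept probes covered the stretch from 78877321 to 78880065.

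The study compared sperm of 3 bulls labelled high fertile (HF2, HF3 and HF5 in the sample names) with sperm of 3 bulls labelled subfertile (SF1, SF4 and SF5). DNA came from frozen semen with no treatment named, and the labels used here give neither breed nor age nor how fertility was scored. It was sheared to fragments of 300 to 1000 bp, and fragments with 5-methylcytosine were pulled down with an antibody. The pulled-down DNA (IP, Cy5) of each bull was hybridised with the same bull's untreated input DNA (Cy3) on 1 array, and no dyes were swapped. Each value below is log2(IP/input) set to 0 at the array's median non-control probe, so that a value above 0 means more antibody-bound DNA than at the median probe. It is not a percentage of methylated cytosines. A dye effect on a probe is therefore part of its ratio on every array. Whether such an effect differed between arrays or scan sessions was not tested. Fragments were longer than the spacing of most probes here, so neighbouring probes share fragments and are not independent. The arrays hold DNA only, so the labelled cell type could not be checked against marker genes.

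HSP70 chaperones bind unfolded stretches of other proteins and release them in a cycle driven by ATP, J-domain proteins (DNAJ) and nucleotide exchange factors such as the BAG proteins. HSPA2 is the member made in large amounts by male germ cells. In mouse spermatocytes it sits on the synaptonemal complex and is needed to finish meiosis, in spermatids it assists the proteins that replace histones, and in sperm it is part of a complex linked to binding of the egg coat. In sperm most CpGs of the genome are methylated, whereas many CpG-dense promoters are not.

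The probes carried between 0 and 6 CpGs each. Probes are numbered 1 to 16 by position. The sequences of 5 probes are given 5′ to 3′ as the scanner tables hold them, with each CpG in capitals; the tables do not state the strand. They are those on which the results turn: probe 3 with the largest difference between scan sessions, probe 7 with the highest mean, probe 10 with the most CpGs, probe 12 with the largest difference between fertility groups, and probe 13, the kept probe above the array median in all 6 bulls.
probe 3 (chr10:78877321-78877380): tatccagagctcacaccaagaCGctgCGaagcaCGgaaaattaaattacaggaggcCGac
probe 7 (chr10:78878515-78878574): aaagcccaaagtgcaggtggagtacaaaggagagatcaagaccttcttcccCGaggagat
probe 10 (chr10:78879666-78879725): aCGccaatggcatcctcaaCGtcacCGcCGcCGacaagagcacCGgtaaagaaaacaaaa
probe 12 (chr10:78879706-78879765): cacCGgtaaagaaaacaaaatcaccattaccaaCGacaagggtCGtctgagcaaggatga
probe 13 (chr10:78879846-78879905): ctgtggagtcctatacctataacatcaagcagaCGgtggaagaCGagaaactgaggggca

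The arrays had been scanned at different times, and what else set these bulls apart was not tested. HF2, HF3 and SF4 were scanned in a first session. HF5, SF1 and SF5 were scanned on later dates, together called the later session. SF1 was scanned apart from the other 2 and its signals were extracted with a CGH setting in place of the ChIP setting of the other arrays. HF2, HF3, SF1 and SF4 shared a slide of 4 arrays, and the other 2 bulls a second slide. Over the whole array IP signals were well above background at 37.6% to 58.6% of probes in the first session and at 76.5% to 85.2% in the later session. Each session held bulls of both fertility groups.

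Over the 13 kept probes, the HSPA2 mean was -0.41 in HF2, -0.41 in HF3 and 0.44 in HF5. It was 0.24 in SF1, -0.23 in SF4 and 0.29 in SF5. The 3 bulls of the first session lay below the array median and the 3 of the later session above it, and each fertility group had bulls on both sides. The median kept probe was itself below 0 on every array. It stood at -0.33, -0.26 and -0.26 in HF2, HF3 and SF4, and at -0.01, -0.02 and -0.10 in HF5, SF1 and SF5. Against that median, HSPA2 was lower in HF2 and HF3 and higher in the other 4 bulls, SF4 among them. Ordered from the highest, the bulls were HF5, SF5, SF1, SF4, HF2 and HF3. The step from SF1 to SF4 parts the sessions. With 1 array a bull, no error between neighbours in this order can be given; the SD over probes within a bull ran from 0.34 to 0.74.

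**Figure D1:**
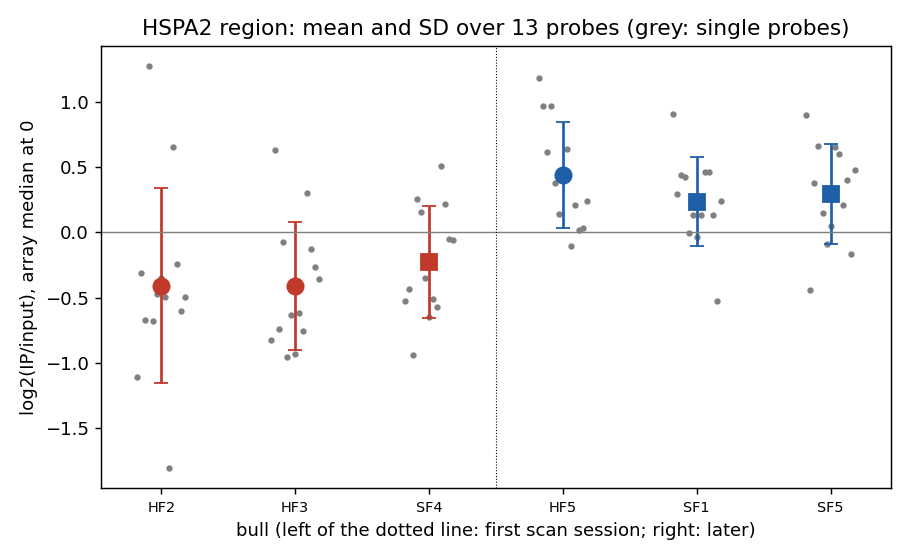
HSPA2 log2(IP/input) of each bull, with the array median at 0. Large symbols are the mean over 13 kept probes (circles high-fertile, squares subfertile, red first session, blue later session), bars are the SD over probes and grey points single probes. The first-session means run from -0.41 to -0.23 and the later-session means from 0.24 to 0.44, while circles and squares lie on both sides of 0.

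The mean HSPA2 level over the 6 bulls was -0.014 (SE 0.15, n = 6). By an exact 2-sided sign-flip permutation test of the bulls' values against 0 this gave p = 1, where the smallest p that 6 bulls allow is 0.03125. The test did not separate the HSPA2 level from that of the array's median probe. Among the 737 gene regions with at least 3 kept probes, HSPA2 ranked 193 from the highest by its mean over bulls. Its place differed between sessions: the HSPA2 value exceeded 43.3%, 34.7% and 52.0% of gene regions in HF2, HF3 and SF4. It exceeded 90.2%, 83.7% and 87.0% of them in HF5, SF1 and SF5. These percentages are ranks within an array and do not depend on where the array's 0 is set.

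High-fertile and subfertile bulls did not differ at HSPA2 beyond the spread between bulls. The means were -0.13 ± 0.49 in high-fertile and 0.10 ± 0.28 in subfertile bulls (SD, n = 3 each), a difference of -0.23 (SE 0.29, 95% interval -0.88 to 0.43). In limma, fitted over all 737 gene regions with Benjamini-Hochberg adjustment, the adjusted p was 0.99986. The test called 0% of gene regions, and 6 had an unadjusted p below 0.05. The HSPA2 groups overlapped, as they did in all but 2.99% of regions. With the scan session as a block the HSPA2 difference was -0.0038 (SE 0.18, 95% interval -0.41 to 0.40, limma adjusted p = 0.998). Within the first session (HF2 and HF3 against SF4) it was -0.18. Within the later session (HF5 against SF1 and SF5) it was 0.17, so that the sign turned. The interaction of group and session was 0.36 (SE 0.34, limma adjusted p = 0.994). Within the slide of 4 arrays the difference was -0.41 (limma adjusted p = 0.957). On that slide only SF1, a subfertile bull, was of the later session, so group and session are mixed in this value. Between the 2 arrays of the other slide the difference was 0.15, with no test. The blocked interval still spans differences of 0.4 on the log2 scale in either direction. It is not adjusted for the 737 gene regions, so a call by the adjusted test would have needed a larger difference. A true change of 0.4, or a somewhat larger one, could therefore have gone uncalled with these arrays.

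**Figure D2:**
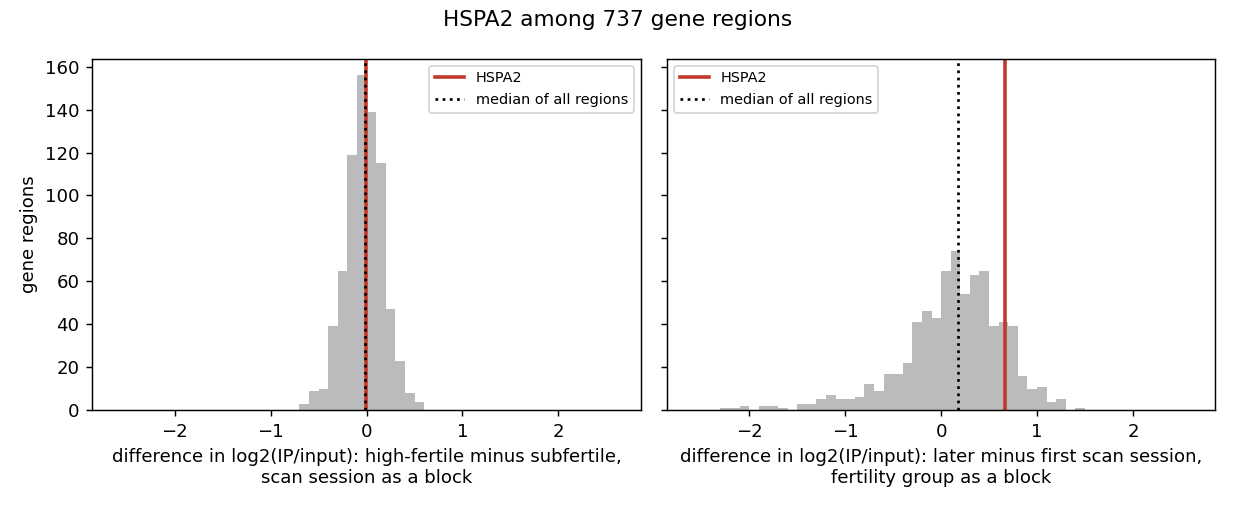
Differences in log2(IP/input) of 737 gene regions, as counts of regions, between fertility groups with the session as a block (left) and between sessions (right, fertility group as a block). The red line marks HSPA2, at -0.0038 on the left and 0.67 on the right, and the dotted line the median of all regions.

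Single probes were compared in the same way. None of the 13 kept probes was called by limma over all 110686 kept probes, where 0% were called, and none of the 13 had an unadjusted p below 0.05, which 1.84% of all kept probes had. In 11 of 13 the high-fertile mean was the lower one, as at 61.4% of all kept probes, whose median difference was -0.09. With the session as a block 8 of 13 were lower, beside 50.2% of all kept probes, and within the later session 4 of 13. The largest difference was at probe 12, with -1.81, -0.75 and -0.10 in HF2, HF3 and HF5 and 0.46, -0.57 and 0.60 in SF1, SF4 and SF5. The 2 groups overlapped there, and the fitted difference was -1.05 (SE 0.48, limma adjusted p = 0.99998). Its IP signal was well above background on 1 of 3 first-session arrays and on all 3 later ones, and 1 of its spots carried a substitute signal. With the session as a block the probe 12 difference was -0.67 (limma adjusted p = 0.9993).

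Probe 4 was the kept probe with the largest difference in the other direction. Its values were -0.31, 0.63 and 0.97 in HF2, HF3 and HF5 and 0.29, -0.43 and -0.44 in SF1, SF4 and SF5, with a fitted difference of 0.62 (SE 0.40, limma adjusted p = 0.99998). With the session as a block it was 0.82 (limma adjusted p = 0.9993), and probe 4 was then 1 of the 13 with an unadjusted p below 0.05, beside 3.48% of all kept probes. Its input was the dimmest of the kept probes at the median, and its IP signal was well above background on 2 of 6 arrays. Probe 14 was the kept probe at which the groups did not overlap, a pattern that 5.78% of all kept probes showed. It read -0.24, -0.13 and 0.01 in HF2, HF3 and HF5 and 0.13, 0.22 and 0.40 in SF1, SF4 and SF5. The fitted difference was -0.37 (SE 0.29, limma adjusted p = 0.99998). At the unnamed spot with the same sequence the groups overlapped, with HF5 at 0.069 above SF1 at 0.037.

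**Figure D3:**
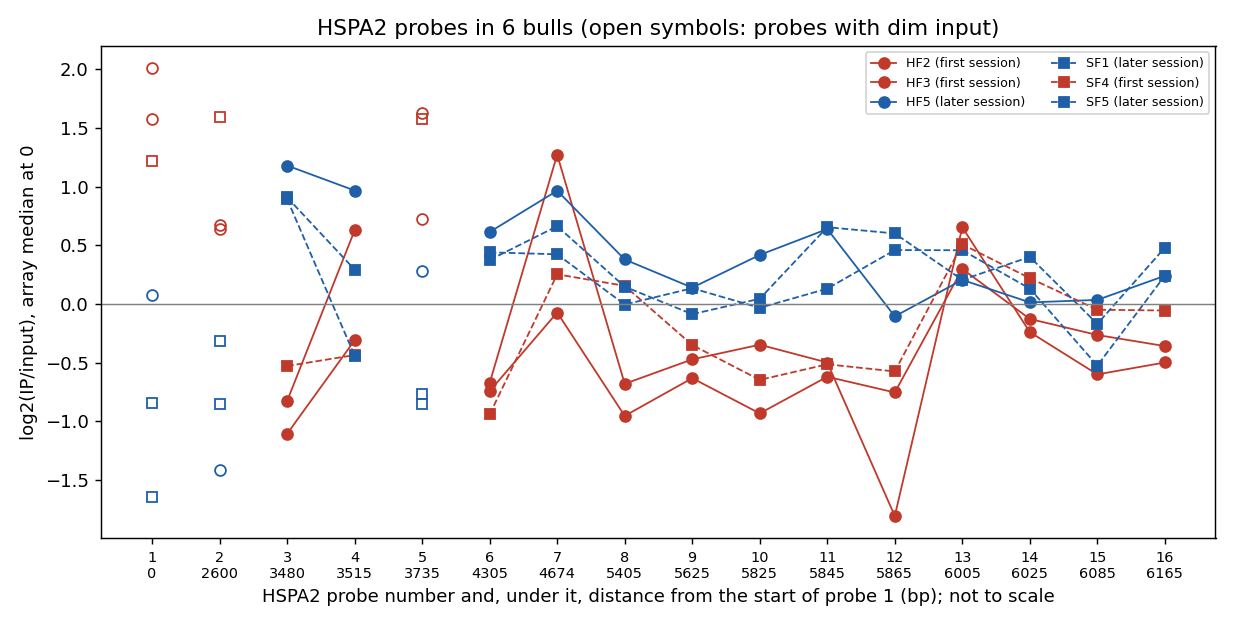
Log2(IP/input) of the 16 HSPA2 probes in each bull, with the array median at 0. Circles are high-fertile and squares subfertile bulls, red the first and blue the later session, and open symbols the 3 probes with dim input. At probe 3 the sessions lie apart by 1.79 in the fit, whereas at probe 13 all 6 bulls lie between 0.21 and 0.65.

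Between scan sessions HSPA2 did differ. The mean was -0.35 ± 0.11 in the first and 0.32 ± 0.10 in the later session (SD, n = 3 each). In a fit that also holds the fertility group the difference was 0.67 (SE 0.18, 95% interval 0.26 to 1.07, limma adjusted p = 0.0311). HSPA2 shared this with many genes: the same test called 20.8% of the 737 regions, and 14% were called higher in the later session. The sessions did not overlap in 45.9% of regions, and in 35.7% all later bulls were the higher ones. Over all regions the median difference was 0.17, and HSPA2 ranked 99 from the highest. The call ended without HF5 (0.49, adjusted p = 0.319), SF1 (0.71, adjusted p = 0.108), SF4 (0.85, adjusted p = 0.111) or SF5 (0.68, adjusted p = 0.0958), all by limma. It also ended when arrays were centred on the kept probes alone (0.43, limma adjusted p = 0.122) and when the input filter was dropped for the whole array, which adds the 3 dim HSPA2 probes (0.18, limma adjusted p = 0.556 over 2791 regions, whose median difference was -0.82). Without HF5, SF1, SF4 or SF5 the test called 0, 1, 3 and 53 of the 737 regions. Centred on the kept probes it called 108 of the 737, and without the input filter 1599 of 2791.

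The difference between sessions was uneven along the gene. It was above 0 at 12 of 13 kept probes, but the array as a whole also leaned that way. The median difference was 0.56 over the 13 and 0.27 over all kept probes. Limma called 3 of the 13, each higher in the later session, against 6.5% of all kept probes called in that direction and 8.08% in either. At 7 of the 13 every later bull lay above every first-session bull, as at 31.9% of all kept probes (39.6% with either session the higher). Centred on the kept probes, 2 of 13 were called, and without HF5, SF1, SF4 or SF5 none was. The same settings called 108, 0, 1, 3 and 53 of the 737 gene regions, in that order.

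Probe 3, the first kept probe, held -1.11, -0.83 and -0.53 in HF2, HF3 and SF4, and 1.18, 0.91 and 0.89 in HF5, SF1 and SF5. The sessions lay far apart and the bulls within each close together. The fitted difference was 1.79 (SE 0.27, limma adjusted p = 0.0280). The IP signal of probe 3 was well above background on 2 of 3 first-session arrays and on all 3 later ones. A filter that also asked for this on all 6 arrays left probe 3 out. Ranked within each array, its input signal stood on average at percentile 70.8 in the first and 74.8 in the later session, and its IP signal at percentile 59.3 and 92.2. It is the sequence with 4 CpGs shown above.

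Probe 6, with 3 CpGs, read -0.67, -0.74 and -0.94 in HF2, HF3 and SF4, against 0.61, 0.44 and 0.38 in HF5, SF1 and SF5. The fitted difference was 1.33 (SE 0.23, limma adjusted p = 0.0286). Its input percentile averaged 89.1 and 90.3, and its IP percentile 81.5 and 93.8, in the first and later session. At probe 11, with 5 CpGs, the fitted difference was 1.05 (SE 0.26, limma adjusted p = 0.0479), and both its input percentile (87.8 and 95.3) and its IP percentile (84.2 and 96.3) were higher later.

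Probe 10, which holds the most CpGs, read -0.35, -0.93 and -0.65 in HF2, HF3 and SF4, and 0.42, -0.03 and 0.04 in HF5, SF1 and SF5. The sessions did not overlap, and the fitted difference of 0.85 (SE 0.27) missed the threshold (limma adjusted p = 0.0816). Probe 12 differed by 1.14 (SE 0.32, limma adjusted p = 0.0634). Probes 10, 11 and 12 overlap each other, so they describe 1 stretch of DNA. Probes 9 and 16 also kept the sessions apart, with differences of 0.53 and 0.54 that did not pass the test.

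Probe 13, downstream of that stretch in coordinate order and with 2 CpGs, was above the array median in every bull, at 0.65, 0.30 and 0.21 in HF2, HF3 and HF5 and 0.46, 0.51 and 0.21 in SF1, SF4 and SF5. It was 1 of the 13 kept probes to be so, and 4.55% of all kept probes were. Its difference between sessions was -0.22 (SE 0.25, limma adjusted p = 0.574), the kept HSPA2 probe with a value below 0. No kept HSPA2 probe was below the median in all 6 bulls, as 21.9% of all kept probes were. Probe 7, with 1 CpG and the highest mean (0.58), read 1.27, -0.07 and 0.97 in HF2, HF3 and HF5 and 0.42, 0.25 and 0.66 in SF1, SF4 and SF5. It was above the median in 5 of 6 bulls, and its sessions overlapped.

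Among the other kept probes, probe 15, with 4 CpGs, averaged -0.26 over the bulls and was below the median in 5 of 6, with sessions 0.08 apart in the fit. Probe 8 averaged -0.16, with -0.68 and -0.95 in HF2 and HF3 and between -0.004 and 0.38 in the other 4 bulls. Probe 9 averaged -0.21 and probe 16 averaged 0.0085.

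The same stretch carried 52 further kept spots without a gene name, which overlap the HSPA2 probes or lie between them and make 65 spots in all. Grouped into 12 tiles of overlapping spots, 9 with the 3 or more spots needed for a test, they show the HSPA2 profile with more spots behind each value. Between sessions limma called 6 of the 9 tiles, each higher in the later session, against 30.6% of the 12860 tiles of the array (34.7% called in either direction). Between fertility groups none of the 9 was called, and 0% of all tiles were (67 at an unadjusted p below 0.05); the high-fertile mean was the lower one in all 9, as in 68.6% of all tiles. With the session as a block it was lower in 6 of the 9, beside 50.4% of all tiles. No tested HSPA2 tile was above the median in all 6 bulls, as 4.89% of tiles were, and none was below it in all 6, as 29.7% were. The tile at which the groups did not overlap was tile 10, with a difference of -0.25 (SE 0.22, limma adjusted p = 0.99985). The share of all tiles with that pattern is not given here, and 5.78% of all kept probes had it. With arrays centred on the kept probes 3 of the 9 tiles were called between sessions, and without HF5 only 1 was. Of the 737 gene regions, 108 and 0 were called in those settings, in that order.

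**Figure D4:**
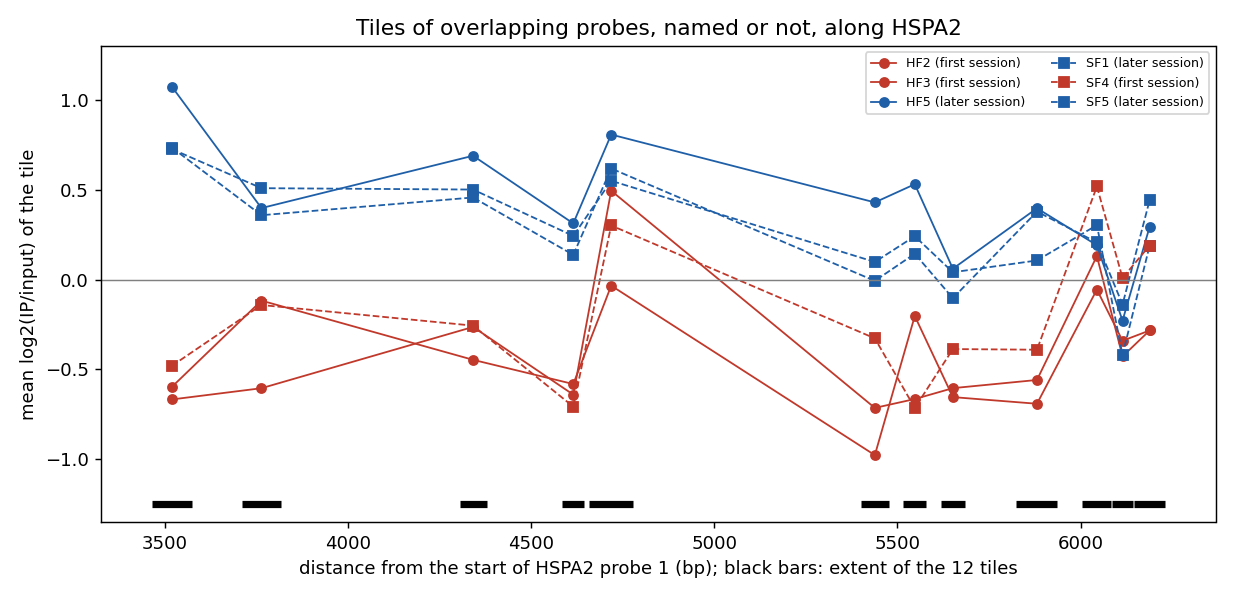
Mean log2(IP/input) of 12 tiles of overlapping probes against distance from the start of probe 1, in bp, for each bull (circles high-fertile, squares subfertile, red first, blue later session). The sessions lie apart at tile 1 on the left, by 1.46 in the fit, and meet at tile 10, where the fitted difference is -0.05.

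Tile 1, which holds probes 3 and 4 and 5 unnamed spots, read -0.67, -0.60 and -0.48 in HF2, HF3 and SF4, and 1.07, 0.73 and 0.73 in HF5, SF1 and SF5. The fitted difference between sessions was 1.46 (SE 0.19, limma adjusted p = 0.000177). Its IP signal was well above background in 30 of 42 spot readings. With a filter that also asked for this on all 6 arrays, 6 tiles could be tested, and tile 1 was not among them. Tile 10, which holds probes 13 and 14, read 0.13, -0.06 and 0.52 in the first and 0.19, 0.30 and 0.21 in the later session in the same order of bulls, and did not differ beyond its spread (-0.05, SE 0.19, limma adjusted p = 0.844). Taken within each array, where the choice of centre cancels, tile 1 minus tile 10 was -0.80, -0.54 and -0.998 in the first and 0.88, 0.42 and 0.53 in the later session. This contrast had 1 sign in all first-session bulls and the other in all later bulls. Both tiles were picked after their values were seen, so it carries no test.

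Between these ends, tile 3 around probe 6 differed by 0.89 (SE 0.19, limma adjusted p = 0.00239), tile 6 around probe 8 by 0.82 (SE 0.22, limma adjusted p = 0.00879) and tile 9 around probes 10 to 12 by 0.83 (SE 0.19, limma adjusted p = 0.00444). Tile 9 holds the most spots of the 12 tiles, with 16 spots and 9 CpGs in 113 bp. Tile 5 around probe 7 stood above the median in 5 of 6 bulls, at 0.49, -0.03 and 0.30 in the first and 0.81, 0.55 and 0.62 in the later session, and its difference of 0.43 was not called (limma adjusted p = 0.108). Tile 11 around probe 15 was below 0 in all bulls but SF4, from -0.43 to 0.01.

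Across the 13 kept probes the mean level correlated with the number of CpGs at r = -0.45, and across the 65 spots at r = -0.37. The difference between sessions correlated with the number of CpGs at r = 0.40 and 0.45. The mean level correlated with log2 input signal at r = -0.43 over 13 and -0.48 over 65 spots. These are descriptions without a test, since the points share arrays, fragments and overlapping sequence, and input signal also enters the ratio. Kept HSPA2 probes averaged 2.92 CpGs, and all kept probes of the array 2.82.

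Spots that repeat a sequence give the error of a single reading. Probes 5, 6, 13, 14 and 15 each had an unnamed spot with the same sequence. For the 4 kept pairs the readings within a bull differed by 0.14 at the median and at most by 0.53 over 24 comparisons. This is the error of a spot on 1 array and does not hold the spread between bulls.

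The 3 HSPA2 probes with dim input lay at the low-coordinate end (probes 1 and 2) and among the kept ones (probe 5). Their input was well above background on 3, 2 and 2 of 6 arrays, and 3, 3 and 4 of their 6 spots carried a substitute signal in at least 1 channel. Their means were 1.60, 0.97 and 1.31 in the first and -0.80, -0.86 and -0.45 in the later session, the opposite order to most kept probes. The duplicate spots of probe 5 differed by up to 1.41 within a bull. In tile 2, whose 4 bright unnamed spots span the position of probe 5, the first session averaged -0.29 and the later 0.42. The HSPA2 probes on the low-coordinate side of probe 3 are both among these dim ones.

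The gene regions whose 6 values were most like those of HSPA2 were PEG10, an imprinted gene derived from a retrotransposon, FAT1, an atypical cadherin, FAM71A, PAPD7, a poly(A) polymerase, and VPS26B, a retromer subunit. Their root mean square difference from HSPA2 over the 6 bulls ran from 0.086 (PEG10) to 0.099 (VPS26B). PEG10, with 21 kept probes, read -0.39, -0.21 and 0.38 in HF2, HF3 and HF5 and 0.27, -0.23 and 0.27 in SF1, SF4 and SF5. The choice by likeness fixes that their sessions lie apart as those of HSPA2 do.

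Other chaperone genes were covered thinly. Of 16 genes of the HSP70 family 12 were named on the array and 10 had a kept probe, but only HSPA2 and HSPH1, a nucleotide exchange factor of HSP70, had the 3 kept probes of a gene region. HSPH1 averaged -0.08, with a difference of -0.12 between high-fertile and subfertile bulls (SE 0.22) and of -0.20 between sessions (SE 0.20). Of its 4 probes, 3 had session differences of 0.58, 0.52 and 0.78, which did not pass the test, and 1 fell by 2.68 (limma adjusted p = 0.0273). Of 55 co-chaperones 36 were on the array and 5 had a region: BAG6, DNAJB6, DNAJB14, DNAJC22 and GRPEL1. Of 33 other chaperones and their regulators 24 were on the array and 4 had a region: CCT5, HSPB3, HSPB6 and TRAP1. None of these 11 regions was called between fertility groups, where 0% of all regions were. Between sessions, where 20.8% of all regions were called, HSPA2 and TRAP1, the mitochondrial HSP90, were called (TRAP1 by 0.71, SE 0.19, limma adjusted p = 0.0311). The TRAP1 probes starting at 3580710 and 3580730, which overlap, differed by 1.26 and 0.97. Its probe starting at 3617341 differed by -0.10. The median difference between sessions was 0.13 over the 5 co-chaperones and 0.47 over the 4 other chaperones, beside 0.17 over all regions.

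BAG6, which stabilises HSPA2 in the testis, was the one of 15 listed HSPA2 partners with a region. Its high-fertile mean was -0.50 and its subfertile mean -0.39, a difference of -0.12 (SE 0.36, limma adjusted p = 0.99986). GRPEL1, the mitochondrial exchange factor, averaged -0.85 and -0.55, a difference of -0.30 (SE 0.25, limma adjusted p = 0.99986). CCT5, a subunit of the CCT chaperonin, had a high-fertile mean of -1.06 and a subfertile mean of -1.10.

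Within 10000 bp of the HSPA2 probes 87 probes were found, of which 16 were named HSPA2, 70 had no name and 1 was named ZBTB1, at 9556 bp on the low-coordinate side. ZBTB1, a zinc finger transcription factor gene, is also a neighbour of HSPA2 in RefSeq's annotation of the assembly NDDB_SH_1. There, however, it lies on the high-coordinate side, with PPP1R36 on the low-coordinate side. PPP1R36 had 0 named probes on the array. The ZBTB1 probe at 9556 bp was not a kept one. The 2 kept ZBTB1 probes, which overlap each other (starts 78846399 and 78846434), lie farther from HSPA2, outside the 10000 bp. They averaged -0.51 and -0.55 and were below the median in all 6 bulls. The next named gene on the other side, CHURC1, lay 401454 bp away.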

How the data were processed

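Per the file headers, the deposited scanner tables of 6 two-colour arrays hold spot intensities from Agilent Feature Extraction 10.7.3.1. Their deposited log10 ratio is red (IP) over green (input). The deposited series table holds log2 values: that ratio on another base, not centred. Gene names stood in 3 of the 6 tables, and spots were matched by feature number, probe name and sequence.

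Log2(IP/input) was computed from processed signals and centred on each array's non-control median, with no loess or quantile normalization. The filter asked for input well above background and no non-uniformity flag on every array (110686 probes). Gene regions average 3 or more kept probes of a name. Whole tables of regions, probes and tiles (added after seeing the data) were fitted with limma 3.58.1 in R 4.3.3 (lmFit, eBayes, 2-sided, Benjamini-Hochberg, threshold 0.05), and the fits were tested on simulated data. The files were read with version 1.17.8 of the data.table package. Each array is 1 bull, so n counts bulls, and the number of arrays limits precision. Alternatives were the probe filter, normexp (offset 50), the series table, centring, the region median, session, slide and each bull left out. Where a fit left 1 bull in a group, its spread was assumed to equal that of the others.

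All HSPA2 probes are described. The 5 gene regions nearest by root mean square difference, and up to 6 members per gene list with a region, are named. Members and lists were chosen with earlier results of these data known.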

Additional observations from a re-analysis of the deposited data

How the results depend on the processing

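The HSPA2 level over the bulls, -0.014, changed sign without the input filter (0.044), when centred on the kept probes (0.15), over all 65 spots of the stretch (0.035) and within the range of values with 1 bull left out (-0.10 to 0.066). With all 6 bulls no alternative took it past the threshold; with 5 bulls the smallest p that the test allows is 0.0625, so those tests could not. The difference between fertility groups stayed uncalled under every alternative run. It was above 0 within the later session (0.17), on the slide of 2 arrays (0.15, no test) and in the unfiltered fit with the session as a block (0.022). With 1 bull left out it ran from -0.51 (without HF5) to -0.08, with limma adjusted p from 0.438. The count of HSPA2 probes called between groups was 0 under every alternative run. The difference between sessions lost its call without the filter (0.18) and when centred on the kept probes (0.43), and ran from 0.49 to 0.85 with 1 bull left out. It kept its call with normexp (0.55), the IP filter (0.63), the series table (0.64), the probe median (0.80) and all spots of the stretch (0.65). HSPA2 probes called between sessions numbered 3 at first, 7 with normexp, 5 without HF2, 2 with the series table or centred on kept probes and 1 without the filter. The share of all probes or tiles called under each alternative is not given here. Of all 737 gene regions, 153 were called at first, 290 with normexp and 249 without HF2. The series table gave 151, centring on kept probes 108, and the unfiltered fit 1599 of 2791. Called tiles numbered 6 of 9 at first, and 3 when centred on kept probes. With the IP filter 4 of 6 tiles were called, and tile 1 and probe 3 were not tested. That filter called 95 of 271 gene regions.

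Of 234 values of single probes and tiles between sessions under these alternatives, 182 kept direction and side of the threshold, 32 lost the call, 12 gained one and 8 changed sign. The sign changes were tile 10 with the IP filter (0.18), with normexp (0.14) and without SF4, probe 14 centred on kept probes (-0.12), probe 15 centred on kept probes (-0.16), without HF2 and without HF5, and probe 8 without HF5. With 1 bull left out, tile 10 ran from -0.26 to 0.15, probe 15 from -0.30 to 0.47 and probe 8 from -0.083 to 1.20. The cause of these changes was not tested. No paired analysis was run, because the labels name no pairing of high-fertile with subfertile bulls. Spots near background limit probes 1, 2, 4 and 5 most.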

Other observations

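Single kept probes of other HSP70 genes add levels without a gene region behind them. The kept probe of HSPA8, the constitutive cytosolic HSP70, averaged -1.44 and was below the array median in all 6 bulls (-0.90, -1.75 and -1.50 in HF2, HF3 and HF5, and -1.24, -1.37 and -1.87 in SF1, SF4 and SF5). HSPA1A, a heat-inducible HSP70, averaged -0.58 at its kept probe and was below the median in 5 of 6 bulls. HSPA1L, another HSP70 of the testis, averaged 0.11 at its kept probe, with HF2, HF3 and HF5 at -0.28, 0.16 and -0.11 and SF1, SF4 and SF5 at 0.02, 0.62 and 0.25. HSPA5, the HSP70 of the endoplasmic reticulum, had 1 kept probe, which was lower in the later session, with a fitted difference of -1.999 (limma adjusted p = 0.0425), opposite in sign to HSPA2. HSPA9, the mitochondrial HSP70, averaged -0.33 at both of its kept probes, which overlap. The kept probes of HSPA12B, HSPA14 and HYOU1 averaged 0.095, -0.14 and -0.088. None of these probes was called between fertility groups by limma.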
